A study of Mus musculus with 8 samples.

Results

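The MHC class II genes described here are the chains H2-Aa, H2-Ab1 and H2-Eb1, the invariant chain Cd74, the peptide-loading genes H2-DMa, H2-DMb1 and H2-DMb2, their modulators H2-Oa and H2-Ob, and the transactivator Ciita. They were taken from a count table by gene symbol, and all 10 were found among its 54532 genes. The table holds bulk RNA-seq of 8 whole tumors grown from 4T1-FLuc, a luciferase-carrying mouse triple-negative breast cancer line, under the skin of immunocompetent female BALB/cJ mice that were 6 weeks old at injection. Saline (PBS control in the sample labels) was given to 4 mice, and 4 mice received mAb-DXd/IMQ, an antibody against CD276 that carries the topoisomerase I inhibitor DXd and IMQ, an imidazoquinoline agonist of Toll-like receptors 7 and 8, in 5 courses of 16 mg/kg spaced 4 days apart. The mAb-DXd/IMQ tumors are called treated. Each tumor is a mixture of cancer, stromal and immune cells taken at the study endpoint, and a single cell line serves as the model. The study reports a much smaller average tumor volume at the endpoint for mAb-DXd/IMQ than for saline. The part of tumor size in the differences below was not tested.

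MHC class II molecules present peptides from endosomes to CD4+ T cells. The A and E molecules are each an alpha and a beta chain that assemble on the invariant chain, whose remnant is later exchanged for peptide with the help of H2-DM, while H2-DO restrains H2-DM. Ciita binds no DNA by itself and is recruited to the X and Y boxes of class II promoters by RFX, CREB and NF-Y factors, and it is induced by interferon gamma in many cell types and constitutively active in dendritic cells and B cells.

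Total counts lay between 45019927 and 69582375 for saline and between 34591912 and 51625237 for treated tumors, and the groups overlapped (exact permutation test over 70 assignments, two-sided, p = 0.171, with 0.0286 the smallest p possible). Levels are given as CPM, counts scaled to library size with edgeR's TMM factors. A level of 3 counts corresponded to between 0.0439 and 0.0843 CPM, a floor that covers counting error only. Of all genes, 18511 passed the filter on low counts, including all 10 class II genes. A gene was called when edgeR's quasi-likelihood test gave it a Benjamini-Hochberg adjusted p below 0.05 and its log2 fold change exceeded 0.58 in size. There were 197 called genes, 101 higher and 96 lower in treated tumors, and with upper-quartile scaling 145 were higher and 73 lower. The count rested on single tumors: it was 111, 10 and 11 without the second, the third or the fourth saline tumor, and 76, 88 and 12 without the second, the third or the fourth treated tumor.

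The promoters of several of these genes are shown because class II genes are known for a shared arrangement of X and Y boxes. RefSeq promoter windows of 300 bases (GRCm38.p6, 250 bases before to 50 after a gene's start) were found for 7 of the 10 genes. The motif ATTGG, the core of the Y box, was searched on both strands and occurred in 37.4% of all 32851 windows. The motif ACNGATG, chosen for the X box and also searched on both strands, occurred in 9.85% of them. The stretches below end with an ATTGG match, on the strand of each gene, with matches to both motifs in capitals. They lie at chr17:34287867-34287921 (H2-Aa, minus strand), chr17:34305758-34305812 (H2-Eb1, plus), chr17:34153080-34153134 (H2-DMb1, plus), chr17:34145109-34145163 (H2-DMb2, plus), chr17:34092286-34092340 (H2-Oa, plus) and chr17:34238798-34238852 (H2-Ob, plus).
H2-Aa: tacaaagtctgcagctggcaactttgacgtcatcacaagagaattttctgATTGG
H2-Eb1: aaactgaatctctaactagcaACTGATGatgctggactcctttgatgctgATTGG
H2-DMb1: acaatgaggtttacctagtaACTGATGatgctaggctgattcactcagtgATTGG
H2-DMb2: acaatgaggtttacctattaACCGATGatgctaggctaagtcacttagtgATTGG
H2-Oa: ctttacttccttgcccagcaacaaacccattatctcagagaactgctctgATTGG
H2-Ob: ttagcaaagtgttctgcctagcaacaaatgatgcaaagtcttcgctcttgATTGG
In H2-Eb1, H2-DMb1 and H2-DMb2 the motifs were 22, 23 and 23 bases apart. The windows of H2-Oa and H2-Aa also held an ACNGATG, and that of H2-Eb1 a further ATTGG, outside the stretches shown, in H2-Aa and H2-Eb1 on the strand opposite to the gene. An ACNGATG followed by ATTGG at a distance of 10 to 30 bases, a spacing chosen after these sequences were seen, occurred in 52 of the 32851 windows (0.158%). The transcription starts to which the windows of H2-DMa belong lay 9664 and 12350 bases from its start in the count table, and these windows are not shown. The transcription start of the H2-DMb2 window lay 1942 bases from that gene's start in the table. A match describes letters in the window, not binding.

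Ciita (ENSMUSG00000022504, chr16:10480059-10528418, plus strand, GRCm38) was lower in treated tumors, and it was the class II gene that passed both thresholds. The saline tumors held 135, 110, 124 and 93.8 CPM of Ciita, and the treated tumors held 51.9, 64.6, 62.6 and 61.6 CPM. Every treated tumor lay below every saline tumor, and the lowest saline value was that of the fourth tumor. The means were 116 ± 17.9 CPM (SD, n = 4) and 60.2 ± 5.68 CPM (SD, n = 4), a log2 fold change of -0.94 (approximate SE 0.13) with an adjusted p of 0.0201 from edgeR's quasi-likelihood test with Benjamini-Hochberg adjustment. Without the third saline tumor the adjusted p was 0.0657 (edgeR), and without the fourth treated tumor it was 0.0694 (edgeR), with log2 fold changes of -0.91 and -0.95. Bulk RNA cannot tell fewer Ciita-expressing cells from less Ciita RNA per cell. The gene Dexi overlaps Ciita on the other strand, and the labels do not state whether the libraries kept strand. Counts on Dexi were 21.8% of those on Ciita, and its log2 fold change was -0.10 (SE 0.17, adjusted p = 0.799, edgeR), between -0.25 and -0.0092 with single tumors left out.

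Among the 10 class II genes, 1 was called and it was lower, where 1.06% of tested genes were called, 0.519% as lower and 0.546% as higher. Groups did not overlap for 1 of the 10, Ciita, against 7.1% of tested genes that were lower without overlap and 5.97% that were higher. The log2 fold change was below 0 for 9 of the 10 genes, compared with 47.4% of tested genes. The 10 genes were measured in the same tumors, so their directions are not independent. Of the 10, 5 had an unadjusted p under 0.05, compared with 18.9% of tested genes. The median log2 fold change over the 10 genes was -0.41, and over all tested genes it was 0.02.

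**Figure D1:**
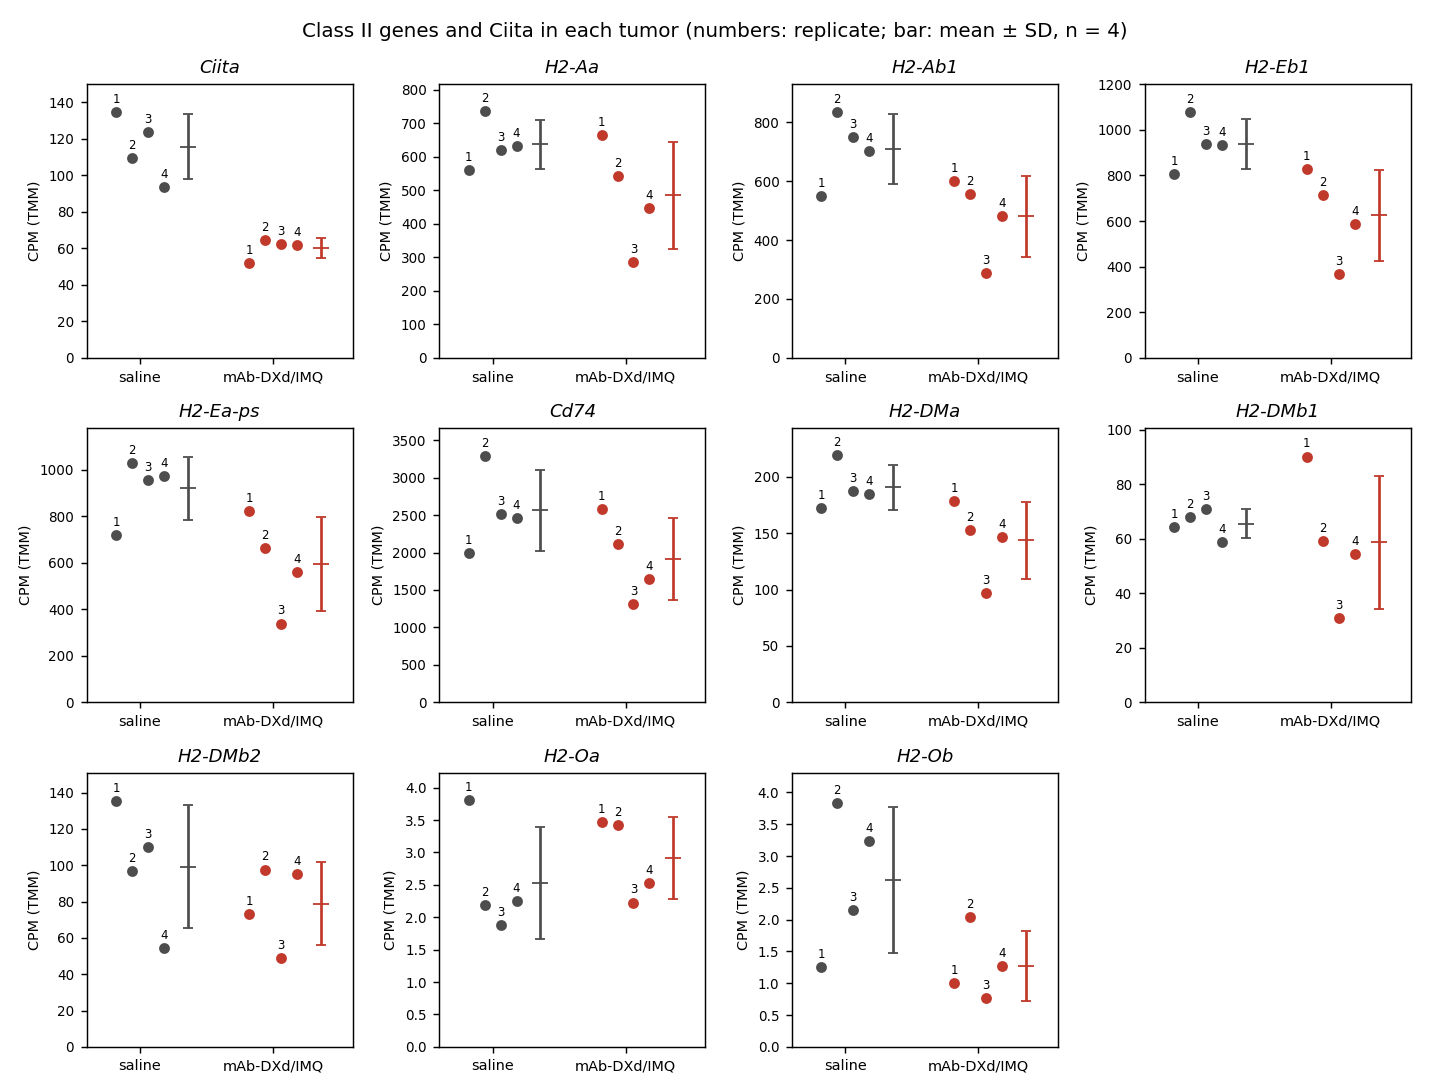
Levels of Ciita, the class II genes and H2-Ea-ps in each tumor, in CPM with TMM scaling on a linear axis that starts at 0. Points are tumors numbered by replicate, and bars give the mean ± SD (n = 4 per group). Ciita separates the groups (51.9 to 64.6 CPM against 93.8 to 135 CPM), while the other genes overlap between them.

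The class II chains had lower means in treated tumors but did not pass the test. H2-Aa, the alpha chain of the A molecule (ENSMUSG00000036594, chr17:34282744-34287827, minus strand), held 559, 735, 619 and 633 CPM with saline and 665, 542, 285 and 446 CPM when treated. H2-Ab1, its beta chain (ENSMUSG00000073421, chr17:34263209-34269418, plus strand), held 550, 835, 749 and 703 CPM with saline and 600, 555, 289 and 480 CPM when treated. H2-Eb1, the beta chain of the E molecule (ENSMUSG00000060586, chr17:34305877-34316199, plus strand), held 808, 1078, 938 and 934 CPM with saline and 830, 716, 366 and 588 CPM when treated. In each of these chains the third treated tumor was the lowest of all 8 and the first treated tumor lay among the saline tumors, so the groups overlapped. The log2 fold changes were -0.39 (SE 0.22) for H2-Aa, -0.56 (SE 0.22) for H2-Ab1 and -0.59 (SE 0.22) for H2-Eb1. Their adjusted p-values were 0.366, 0.200 and 0.186 (edgeR, Benjamini-Hochberg). Without the third treated tumor the log2 fold changes of H2-Aa, H2-Ab1 and H2-Eb1 were -0.21, -0.38 and -0.40, and without the first treated tumor they were -0.59, -0.69 and -0.76.

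The table names the alpha chain gene of the E molecule H2-Ea-ps and calls it a pseudogene (ENSMUSG00000036322, chr17:34342933-34344643, minus strand). That is its state in the C57BL/6 reference strain, whereas BALB/c mice carry a haplotype that makes the E molecule. H2-Ea-ps had 720, 1028, 958 and 973 CPM with saline and 822, 663, 339 and 559 CPM when treated. The third treated tumor was again lowest and the groups overlapped, with a log2 fold change of -0.63 (SE 0.24, adjusted p = 0.189, edgeR), which was -0.43 without that tumor and -0.83 without the first treated tumor. Class II chains are highly polymorphic, the reference is of another strain, and how many reads this lost was not tested. H2-Eb2, a further beta chain gene, had between 6 and 124 counts per tumor. Its log2 fold change was -0.53 (SE 0.78, adjusted p = 0.764, edgeR) and changed sign, to 0.56 without the third saline tumor and to 0.23 with limma-voom.

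Cd74 (ENSMUSG00000024610, chr18:60803848-60812646, plus strand), the invariant chain that also chaperones class II to endosomes, held 1994, 3291, 2509 and 2456 CPM with saline and 2581, 2113, 1315 and 1647 CPM when treated. The second saline tumor was highest, the third treated tumor lowest, and the groups overlapped. The log2 fold change was -0.42 (SE 0.23, adjusted p = 0.347, edgeR), and it was -0.28 without the third treated tumor, -0.28 without the second saline tumor and -0.60 without the first treated tumor.

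**Figure D2:**
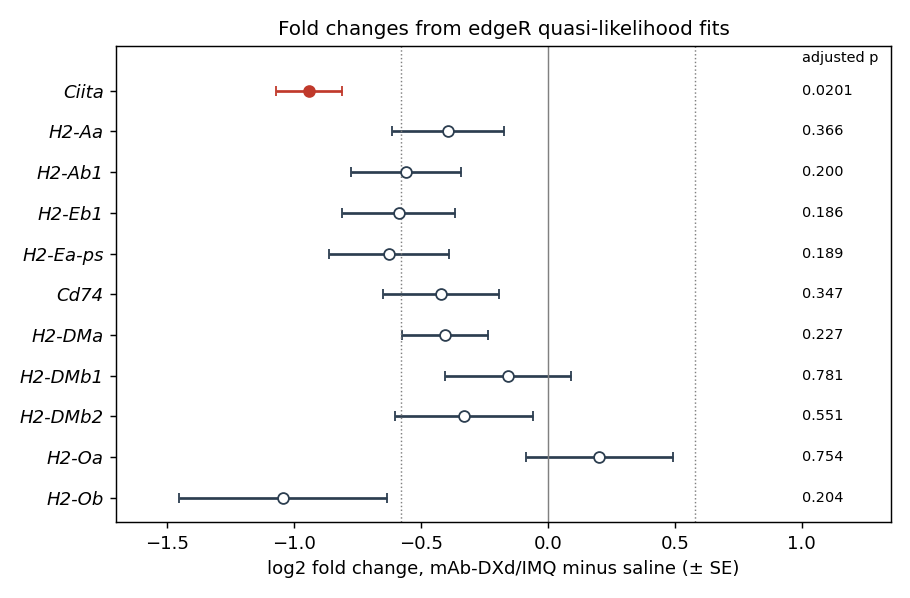
Log2 fold changes (mAb-DXd/IMQ minus saline) with standard errors from edgeR for the class II genes, Ciita and H2-Ea-ps. Dotted lines mark the fold change threshold of 0.58 in both directions, the filled red point is the gene past both thresholds, and adjusted p-values stand at the right. Ciita passed at -0.94 (SE 0.13), while H2-Ob at -1.04 (SE 0.41) did not.

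The peptide-loading genes load peptide in place of the invariant chain remnant. H2-DMa (ENSMUSG00000037649, chr17:34135182-34139101, plus strand), the alpha chain, held 172, 219, 187 and 185 CPM with saline and 179, 153, 97.1 and 147 CPM when treated. The first treated tumor lay within the saline range and the third was lowest (log2 fold change -0.41, SE 0.17, adjusted p = 0.227, edgeR), and without the third the log2 fold change was -0.26. H2-DMb1 (ENSMUSG00000079547, chr17:34153072-34160230, plus strand), a beta chain, held 64.2, 68.1, 70.8 and 58.6 CPM with saline and 90.1, 59.2, 31.0 and 54.3 CPM when treated, so the highest and the lowest of the 8 values were both in treated tumors. Its log2 fold change was -0.16 (SE 0.25, adjusted p = 0.781, edgeR) and 0.053 without the third treated tumor, and -0.45 without the first. H2-DMb2 (ENSMUSG00000037548, chr17:34143307-34151553, plus strand), the other beta chain, held 136, 97.0, 110 and 54.2 CPM with saline and 73.4, 97.7, 49.1 and 95.4 CPM when treated. The spread among saline tumors covered every treated tumor but the third (log2 fold change -0.33, SE 0.27, adjusted p = 0.551, edgeR). The log2 fold change of H2-DMb2 was -0.15 without the first saline tumor, -0.16 without the third treated tumor and -0.53 without the fourth saline tumor. H2-DMb1 and H2-DMb2 are near copies. Of the 100-base windows of their transcripts, 11.3% in H2-DMb1 and 10.3% in H2-DMb2 occurred in the other, so their counts are uncertain relative to each other. No such window was shared by the other class II genes, H2-Ea-ps and H2-Eb2 included.

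H2-Oa and H2-Ob, which encode the H2-DO chains, had low counts. H2-Oa (ENSMUSG00000024334, chr17:34092340-34095234, plus strand) had between 97 and 188 counts with saline and between 90 and 168 when treated, or 3.81, 2.19, 1.88 and 2.25 CPM and 3.47, 3.43, 2.23 and 2.53 CPM. The groups overlapped, and it was the class II gene with a log2 fold change above 0 (0.20, SE 0.29, adjusted p = 0.754, edgeR). With single tumors left out it lay between 0.082, without the third saline tumor, and 0.46, without the first. H2-Ob (ENSMUSG00000041538, chr17:34238903-34245907, plus strand) held 1.26, 3.84, 2.15 and 3.23 CPM with saline and 1.01, 2.03, 0.764 and 1.26 CPM when treated. The first saline tumor lay within the treated range and the other saline tumors above it, and the log2 fold change of -1.04 (SE 0.41) had an adjusted p of 0.204 (edgeR). With single tumors left out it lay between -1.37, without the second treated tumor, and -0.81, without the second saline tumor.

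Levels were compared between genes per kilobase of the deposited gene length, as TPM. The order of the saline means was Cd74 (5159 ± 1001 TPM, SD, n = 4), H2-Ea-ps (3807 ± 490), H2-Eb1 (2255 ± 225), H2-Ab1 (1230 ± 184), H2-Aa (965 ± 95.2), H2-DMa (331 ± 29.9), H2-DMb2 (166 ± 59.8), H2-DMb1 (125 ± 9.92), Ciita (34.6 ± 5.99), H2-Oa (5.52 ± 2.05), H2-Ob (2.35 ± 0.998) and H2-Eb2 (1.11 ± 1.25). The order was the same for treated tumors, from 3746 TPM for Cd74 to 0.746 TPM for H2-Eb2, and with any of the 8 tumors left out of its group. Over the saline tumors the TPM ranges of neighbors in this order overlapped for Cd74 and H2-Ea-ps, H2-Ab1 and H2-Aa, H2-DMb2 and H2-DMb1, and H2-Ob and H2-Eb2. The saline mean of H2-Eb2 rested on the third saline tumor, at 2.83 TPM against 0.172 to 1.22 TPM in the others. The length given for H2-Ea-ps, 686 bases, enters its place. Cd74 ranked 12 among all genes by mean saline TPM, and Ciita ranked 4649. Cd74, H2-Aa, H2-Ab1, H2-Eb1 and H2-Ea-ps together took 0.570 ± 0.0914% of all counts with saline (SD, n = 4) and 0.410 ± 0.105% when treated (SD, n = 4), with overlapping groups.

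Ciita and the chains lay on the same side of their means in 6 of the 8 tumors. On the log2 CPM scale, centred over the 8 tumors, the mean of H2-Aa, H2-Ab1, H2-Eb1 and Cd74 was -0.0023, 0.53, 0.28 and 0.26 with saline and 0.19, -0.03, -0.91 and -0.32 when treated. Ciita on the same scale was 0.70, 0.40, 0.58 and 0.18 with saline and -0.68, -0.36, -0.40 and -0.43 when treated. The second, the third and the fourth tumor were above the mean for both with saline and below it for both when treated. The first tumor of each group departed from this: the first treated tumor had the lowest Ciita of all 8 and chains above the mean, and the first saline tumor had the highest Ciita and the lowest chains of its group. For ratios, the summed chains are H2-Aa, H2-Ab1, H2-Eb1 and H2-Ea-ps, without Cd74, and H2-Ea-ps has the largest TPM among them. The log2 ratio of Ciita to this sum was -7.91 ± 0.39 with saline (SD, n = 4) and -8.21 ± 0.61 when treated (SD, n = 4). The difference of -0.30 was smaller than the SD within either group, and the groups overlapped. Without the first treated tumor it was -0.07 and without the third -0.56, and whether Ciita changed more than the chains was not tested.

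**Figure D3:**
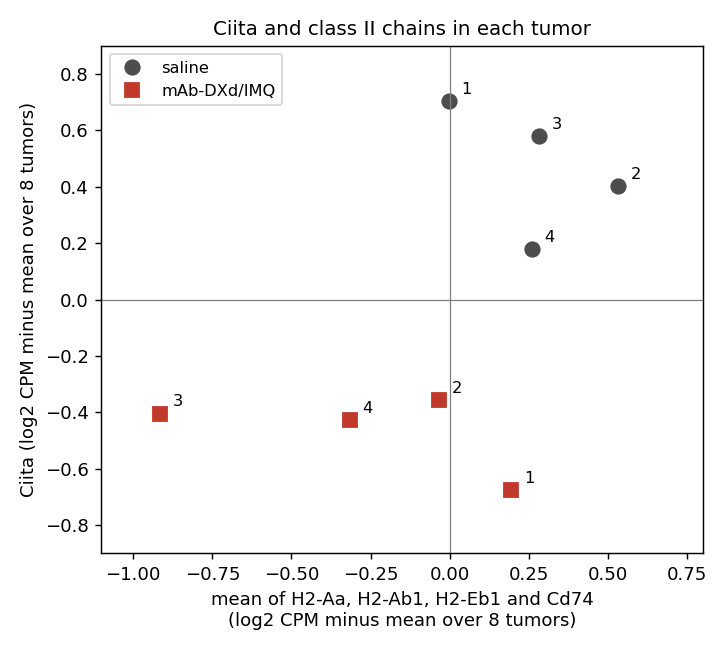
Ciita against the mean of H2-Aa, H2-Ab1, H2-Eb1 and Cd74 in each tumor, both as log2 CPM minus the mean over 8 tumors. Points are numbered by replicate. Saline tumors lie above 0 for Ciita and treated tumors below, while on the chain axis the first treated tumor (0.19) lies among the saline tumors and the third (-0.91) is lowest.

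Likeness to this mean was measured as the root mean square difference of centred log2 CPM over the 8 tumors. Among 11647 other genes with a mean of at least 5 CPM, the 10 closest were Rpl10-ps3, Acadsb, Nxt2, H2-Ea-ps, Pex3, Hadh, Rps4x, Klhl7, Tceanc and S100a16, at 0.0925 to 0.136. H2-DMa was at 0.108 and H2-DMb1 at 0.225. H2-DMb2 (0.483), H2-Oa (0.553), H2-Ob (0.497) and Ciita (0.467) were farther than the median candidate, at 0.448. The measure counts the size of deviations as well as their direction. A gene that hardly varies can therefore score closer than a gene that moves with the chains by a different amount. The values of 0.0641 to 0.0979 for the genes that form the mean are low partly by construction.

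Ratios within the class II genes overlapped between groups. The log2 ratio of H2-DM to H2-DO TPM was 6.32 ± 0.31 with saline (SD, n = 4) and 6.03 ± 0.23 when treated (SD, n = 4). Its difference rested in part on the third saline tumor, at 6.74 against 6.07 to 6.36 in the other saline tumors. H2-Ob over H2-Oa TPM was 0.486 ± 0.254 against 0.180 ± 0.0581 (SD, n = 4), and the first saline tumor, at 0.137, lay inside the treated range. Cd74 over the summed TPM of H2-Aa, H2-Ab1, H2-Eb1 and H2-Ea-ps was 0.621 ± 0.0560 against 0.709 ± 0.0811 (SD, n = 4). Here the difference rested in part on the third treated tumor, at 0.824 against 0.634 to 0.698 in the other treated tumors. H2-Eb1 over H2-Ea-ps TPM, the beta over the alpha chain gene of the E molecule, was 0.595 ± 0.0429 against 0.611 ± 0.0192 (SD, n = 4) and lay between 0.556 and 0.650 in all 8 tumors.

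Of the genes that act with Ciita at class II promoters, 0 of 10 were called by edgeR, 0 by limma-voom and 0 by DESeq2, and 3 had an unadjusted p under 0.05 (edgeR). Over all tested genes edgeR called 1.06%, limma-voom 0.94% and DESeq2 4.25%, and 18.9% had an unadjusted p under 0.05 (edgeR). The median log2 fold change of the 10 genes was -0.16, against 0.02 over all tested genes. Creb1, a factor of the X2 box, held 90.7, 98.4, 102 and 95.3 CPM with saline and 69.2, 70.3, 82.2 and 70.6 CPM when treated, without overlap (log2 fold change -0.40, adjusted p = 0.0662, edgeR). The acetyltransferase gene Ep300 held 120, 130, 117 and 121 CPM with saline and 69.8, 97.6, 98.4 and 81.7 CPM when treated, also without overlap (log2 fold change -0.49, adjusted p = 0.0702, edgeR). Rfx5, the DNA-binding subunit of RFX, had 34.5 ± 2.66 CPM and 28.8 ± 5.36 CPM (SD, n = 4), and the groups overlapped.

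Among 10 genes of the interferon gamma input to Ciita, 0 were called by edgeR, 0 by limma-voom and 0 by DESeq2, and 3 had an unadjusted p under 0.05 (edgeR), as had 18.9% of all tested genes. The median log2 fold change of the 10 genes was -0.07. The cytokine gene Ifng held 2.94, 1.87, 2.87 and 1.57 CPM with saline and 1.22, 1.26, 0.633 and 1.46 CPM when treated. Every treated tumor was lower than every saline tumor, with a log2 fold change of -1.02 (SE 0.34, adjusted p = 0.145, edgeR). Irf2, which acts on the interferon-inducible Ciita promoter, held 90.6, 84.7, 78.9 and 75.8 CPM with saline and 62.6, 59.1, 53.6 and 57.3 CPM when treated, again without overlap. Its adjusted p of 0.0427 (edgeR) was under the limit, but its log2 fold change of -0.50 was within the fold threshold. The adjusted p of Irf2 was 0.0428 without the first treated tumor and 0.0691 to 0.119 with any other single tumor left out (edgeR). It was 0.104 with the gene length correction and 0.108 with the replicate block (edgeR).

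Of the 5 myeloid and B-cell inputs to Ciita, 0 were called by edgeR, 0 by limma-voom and 2 by DESeq2, and 3 had an unadjusted p under 0.05 (edgeR). Pax5, a B-cell factor, had at most 0.293 CPM with saline, with 0 counts in the second tumor, and between 0.300 and 1.07 CPM when treated (log2 fold change 2.25, SE 0.74, adjusted p = 0.136, edgeR). Irf4, a lymphocyte and dendritic cell factor, had a log2 fold change of -1.26 (SE 0.41, adjusted p = 0.131, edgeR). Pax5 and Irf4 were the genes called by DESeq2, which called 4.25% of all tested genes, and 18.9% of them had an unadjusted p under 0.05 (edgeR).

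Of 11 genes for endosomal processing and turnover, 0 were called by edgeR, 0 by limma-voom and 1 by DESeq2, and 2 had an unadjusted p under 0.05 (edgeR), where DESeq2 called 4.25% of all tested genes and 18.9% had such a p. March1, a ubiquitin ligase gene whose product removes class II from the surface, ranged from 24.4 to 49.5 CPM with saline and from 19.1 to 24.9 CPM when treated, so the groups just overlapped. Its log2 fold change was -0.78 (SE 0.20, adjusted p = 0.0736, edgeR), and it rested on single tumors: -0.93 without the first saline tumor (adjusted p = 0.0380, edgeR) but -0.59 without the second (0.146) and -0.71 without the fourth (0.216).

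Of the 13 class I genes set beside them, 0 were called by edgeR, 0 by limma-voom and 0 by DESeq2, and 1 had an unadjusted p under 0.05 (edgeR), as had 18.9% of all tested genes. The log2 fold change was above 0 for 12 of them, or 10 with the gene length correction, and their median was 0.17. Of all tested genes, 47.4% were below 0. Pdia3, a chaperone of the class I loading complex, was the gene without overlap (624 to 666 CPM against 721 to 1068 CPM when treated, log2 fold change 0.39, adjusted p = 0.177, edgeR), and without the first treated tumor its log2 fold change was 0.25. The exception in direction was Nlrc5, the transactivator of class I and a relative of Ciita, at -0.30 (SE 0.23, adjusted p = 0.504, edgeR), and at -0.12 without the first saline tumor, -0.14 without the first treated tumor and -0.45 without the fourth.

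CD4 and LAG-3 are T-cell proteins that bind class II. Cd4 fell, with 4.48, 8.30, 7.17 and 9.22 CPM for saline and 2.02, 2.14, 1.66 and 1.94 CPM for treated tumors. Every treated tumor lay below every saline tumor (log2 fold change -1.91, SE 0.25, adjusted p = 0.0201, edgeR). The adjusted p of Cd4 was 0.0657, 0.0846 and 0.0694 without the third saline, the fourth saline or the fourth treated tumor (edgeR). Its log2 fold change lay between -2.09 and -1.77 with single tumors left out. Lag3 held 12.6, 12.8, 14.2 and 10.3 CPM with saline and 6.02, 8.42, 7.58 and 6.10 CPM when treated, also without overlap (log2 fold change -0.83, SE 0.18, adjusted p = 0.0517, edgeR). DESeq2 called both genes. Of all tested genes, DESeq2 called 4.25% and edgeR 1.06%, and 7.1% were lower without overlap.

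Among 3 costimulatory genes of antigen-presenting cells, 0 were called by edgeR, 0 by limma-voom and 1, Cd40, by DESeq2, and 2 had an unadjusted p under 0.05 (edgeR), beside 4.25% of all tested genes called by DESeq2 and 18.9% with such a p. Cd40 ranged from 17.9 to 23.6 CPM with saline and from 23.6 to 51.9 CPM when treated, so the groups touched without overlapping (log2 fold change 0.83, SE 0.22, adjusted p = 0.0760, edgeR). Cd80 had a log2 fold change of 0.60 (SE 0.23, adjusted p = 0.195, edgeR) and Cd86 of -0.29 (SE 0.22, adjusted p = 0.504, edgeR), and that of Cd86 was -0.50 without the first saline tumor and -0.16 without the second. Of 56 tested genes in all these lists, 1 was called by edgeR, Cd4, and groups did not overlap for 6 genes that were lower and 3 that were higher. Over all tested genes, 1.06% were called by edgeR, and groups did not overlap for 7.1% that were lower and 5.97% that were higher.

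**Figure D4:**
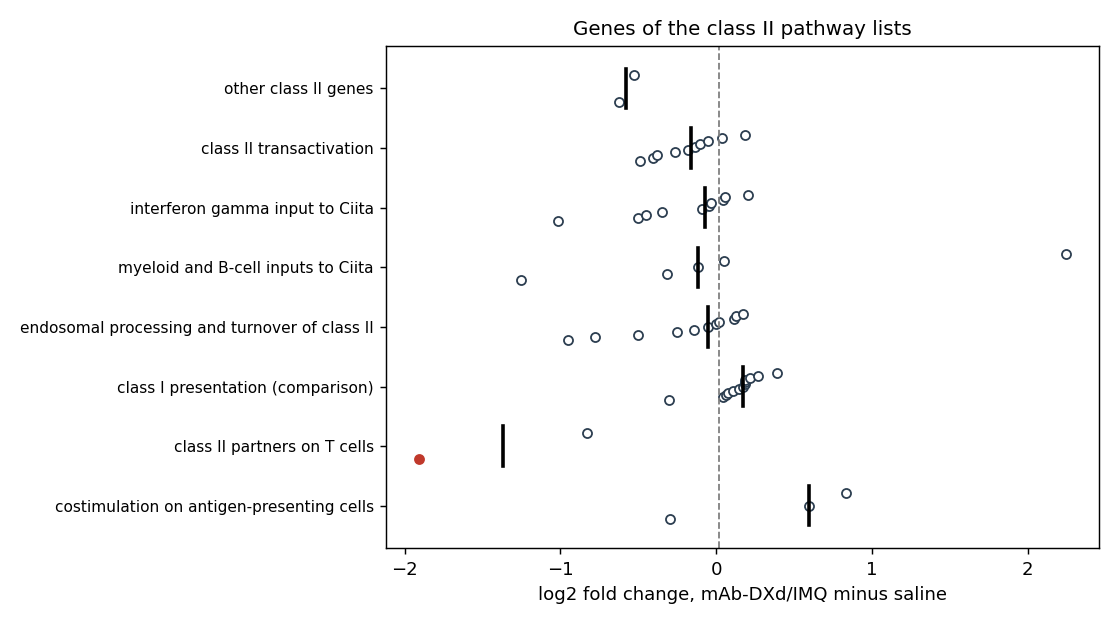
Log2 fold changes (mAb-DXd/IMQ minus saline) of the tested genes in each list of the class II pathway. Each point is a gene, the black bar is the list's median and the dashed line is the median over all tested genes (0.02). The filled red point, Cd4 at -1.91, is the gene past both thresholds.

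Markers of cells that express class II were measured in the same tumors. The 11 dendritic cell markers, led by Itgax, summed to 95.1, 137, 119 and 133 CPM with saline and 98.6, 96.6, 160 and 96.5 CPM when treated. The log2 fold change was below 0 for 10 of 11, beside 47.4% of all tested genes. Of the 11, 0 were called by edgeR, 0 by limma-voom and 1 by DESeq2, and 5 had an unadjusted p under 0.05 with edgeR, 2 with limma-voom and 6 with DESeq2. Over all tested genes edgeR called 1.06%, limma-voom 0.94% and DESeq2 4.25%, and 18.9% had an unadjusted p under 0.05 with edgeR. Of the markers of conventional dendritic cells, those singled out after their values were seen had log2 fold changes of -1.03 for Flt3, -1.53 for Clec9a and -1.17 for Xcr1 and adjusted p-values of 0.211, 0.194 and 0.226 (edgeR). Zbtb46 and Batf3, of the same list, were at -0.25 and -0.34 (adjusted p = 0.351 and 0.477, edgeR), and Batf3 was at -0.16 without the second saline tumor. The values of Flt3, Clec9a and Xcr1 rested on single saline tumors. Without the second, they were -0.74 for Flt3, -0.97 for Clec9a and -0.53 for Xcr1, with adjusted p-values of 0.424, 0.426 and 0.562 (edgeR). Without the first, Clec9a was called at -1.89 (adjusted p = 0.0414, edgeR), and limma-voom gave -1.07 with all tumors. The third treated tumor, lowest in the chains H2-Aa, H2-Ab1, H2-Eb1 and H2-Ea-ps, had the highest Ptprc (193 CPM, against 119 to 176 CPM in the other tumors) and the highest dendritic marker sum. That sum was high through Itgax (128 CPM there). The other 10 dendritic markers, summed after these values were seen, came to 30.5, 70.5, 42.6 and 57.6 CPM with saline and 34.4, 31.3, 31.8 and 29.7 CPM when treated, so without Itgax this tumor lay among the other treated tumors.

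The 12 macrophage and monocyte markers, led by Lyz2, summed to 1320, 6701, 3060 and 3757 CPM with saline and 3780, 2768, 3462 and 2610 CPM when treated. All 12 log2 fold changes were below 0 in edgeR with TMM, beside 47.4% of all tested genes, and 10 were with upper-quartile scaling and 10 with limma-voom. Of these markers, 0 were called by edgeR, 0 by limma-voom and 1 by DESeq2, and 2 had an unadjusted p under 0.05 with edgeR, 1 with limma-voom and 3 with DESeq2, where DESeq2 called 4.25% of all tested genes and 18.9% had such a p with edgeR. Groups did not overlap for Mrc1 (104 to 360 CPM against 72.0 to 82.8 CPM when treated, log2 fold change -1.37, adjusted p = 0.0574, edgeR), and without the first saline tumor its log2 fold change was -1.58 (adjusted p = 0.0294, edgeR), while without the second it was -0.90 (0.0574). The 8 B-cell markers were at the edge of detection. They summed to between 1.70 and 3.73 CPM with saline and between 1.71 and 2.45 CPM when treated, 4 of them were tested, and Ms4a1, Pax5, Fcer2a and Blk had 0 counts in at least 1 tumor. Of the 4 tested, 0 were called by edgeR or limma-voom, and DESeq2 called 1 higher and 1 lower. Unadjusted p was under 0.05 for 2 (edgeR), beside 18.9% of all tested genes, and DESeq2 called 4.25%. Cd79b, named after its values were seen, was lower without overlap (0.609 to 1.43 CPM against 0.131 to 0.536 CPM when treated). Its log2 fold change was -1.53 (adjusted p = 0.128, edgeR), while Pax5 was higher without overlap. Of all tested genes, 7.1% were lower and 5.97% higher without overlap.

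The 8 T-cell markers, led by Cd8a, summed to 76.7, 116, 110 and 100 CPM with saline and 66.3, 55.2, 35.1 and 48.2 CPM when treated, without overlap, and 2 were called lower by edgeR, Cd4 and Cd8a, beside 0.519% of all tested genes. Of the 8, 3 were called by limma-voom and 6 by DESeq2, and 7 had an unadjusted p under 0.05 (edgeR), where the shares of all tested genes were 0.94%, 4.25% and 18.9%. Without the third saline, the fourth saline or the fourth treated tumor neither Cd4 nor Cd8a was called, with adjusted p-values for Cd8a of 0.0657, 0.0846 and 0.0694 (edgeR). Cd4 had the same adjusted p-values there, since Benjamini-Hochberg adjustment can give several genes a shared value. The log2 fold change of Cd8a lay between -1.36 and -1.11 with single tumors left out. The 6 neutrophil markers, led by S100a9, summed to between 84.9 and 225 CPM with saline and to at most 67.2 CPM when treated, and Ly6g had 0 counts in at least 1 tumor. Of the 5 tested, 1 was called by edgeR, 1 by limma-voom and 3 by DESeq2, and 4 had an unadjusted p under 0.05 (edgeR), beside 1.06%, 0.94%, 4.25% and 18.9% of all tested genes. The gene edgeR called lower was Csf3r (log2 fold change -0.80, adjusted p = 0.0402, edgeR). It was not called with any single saline tumor left out (adjusted p 0.0625, 0.0715, 0.0754 and 0.134, edgeR), nor without the second, the third or the fourth treated tumor (0.0749, 0.0587 and 0.0935, edgeR). The T-cell and neutrophil sums, like Ciita, separated the groups. The part of these cells in the Ciita difference was not tested.

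The 7 epithelial markers, led by Krt18, summed to between 1961 and 2596 CPM with saline and between 2138 and 3728 CPM when treated, and 0 were called by edgeR, 0 by limma-voom and 0 by DESeq2, with 0 at an unadjusted p under 0.05 (edgeR). All 7 log2 fold changes were above 0, where 47.4% of all tested genes were below 0, and the median was 0.30. With limma-voom 6 were above 0, and 6 with the gene length correction. All 5 endothelial markers, led by Pecam1, were also above 0, with a median of 0.56, and summed to between 77.5 and 191 CPM with saline and between 155 and 190 CPM when treated. Of these 5, 0 were called by edgeR, 0 by limma-voom and 1 by DESeq2, 1 had an unadjusted p under 0.05 with edgeR, 1 with limma-voom and 3 with DESeq2, and 1, Emcn, was higher without overlap. Of all tested genes, DESeq2 called 4.25%, 18.9% had such a p with edgeR, and 5.97% were higher without overlap. Of the 7 fibroblast markers, 0 were called by these tools and 1 was lower without overlap, as were 7.1% of all tested genes. The 6 epidermis and Langerhans cell markers summed to between 32.6 and 200 CPM with saline and between 99.4 and 498 CPM when treated. The second treated tumor was highest, and of the 4 tested, 0 were called. Of 3 tested lymph node stroma and follicle markers, DESeq2 called 1 lower and the other tools 0. The part of the epithelial and endothelial share in the Ciita difference was not tested.

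The log2 ratio of Ciita to Ptprc TPM, a pan-leukocyte gene, was 1.05, 0.26, 0.66 and 0.09 with saline and -0.33, 0.03, -0.68 and -0.01 when treated. The groups did not overlap, but the fourth saline tumor (0.09) and the second treated tumor (0.03) lay close together. The part of leukocyte content in the Ciita difference was not tested. The log2 ratio of the summed chains, H2-Aa, H2-Ab1, H2-Eb1 and H2-Ea-ps, to Ptprc TPM was 8.42 ± 0.07 with saline (SD, n = 4) and 7.96 ± 0.83 when treated (SD, n = 4), where the third tumor was at 6.75 and the first at 8.58.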

How the data were processed

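The authors deposited raw counts per gene for 8 tumors, and the submitters' processing notes name HISAT2, HISAT and TopHat2 without roles and the build mm39. Of the table's gene identifiers, 54409 were in GENCODE M21, and 99.7% of these had a start within 1000 bases of their GRCm38 start, as had 8 of the 10 class II genes (H2-Ab1 and H2-DMa differed by 5520 and 15641 bases), so coordinates are given as GRCm38. The counting program and strandedness are not given in the sources used here. Tumors were grouped by their labels. edgeR 4.0.16 (R 4.3.3) was used with filterByExpr (minimum count 10, minimum total 15), TMM factors and the quasi-likelihood test, and standard errors were derived from the F statistic. Alternatives were DESeq2 1.42.0, limma-voom (limma 3.58.1), other scalings, no filter, a gene length correction (splines, 5 degrees of freedom), a replicate block and leaving out each tumor. TPM used the deposited gene lengths over all genes. The fits were also run on simulated counts with a single dispersion and no differences in cell mixture between tumors. That run checked the code, not how the fits handle these tumors. Named genes are the class II genes, genes of pathway lists past the thresholds or without overlap, and the 10 genes most like the chains; H2-Ea-ps, H2-Eb2, Rfx5, Irf4, March1, Nlrc5, Cd80, Cd86, Cd8a, Csf3r, Mrc1, Flt3, Clec9a, Xcr1, Zbtb46, Batf3, Emcn and Dexi were named after their values were seen. The members and lists were chosen with earlier results of these data known.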

Additional observations from a re-analysis of the deposited data

Results flagged for a closer look

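Across 132 groups of 4 values, 7 held a tumor far from the other 3, by the gap to its nearest neighbor as a share of the group's range. Chance gives about 1 in 20 groups, or 6.6 here. The third mAb-DXd/IMQ tumor stood apart with 160 CPM for the dendritic marker sum (others 96.5 to 98.6, gap 0.967 of the range), which came from Itgax, since the other 10 markers summed to 31.8 CPM there and to 29.7 to 34.4 CPM in the other 3. It also had 193 CPM for Ptprc (others 119 to 125, gap 0.910) and 82.2 CPM for Creb1 (others 69.2 to 70.6, gap 0.891). The first mAb-DXd/IMQ tumor was below the others for Csf3r (others 21.8 to 22.9 CPM, gap 0.870) and had a log2 ratio of H2-DMb2 to H2-DMb1 of -0.50 (others 0.46 to 0.61, gap 0.865). The second saline tumor had a log2 ratio of Cd74 to the summed TPM of H2-Aa, H2-Ab1, H2-Eb1 and H2-Ea-ps of -0.50 (others -0.77 to -0.74, gap 0.887), and the fourth saline tumor an adipocyte marker sum of 40.0 CPM (others 21.9 to 24.8, gap 0.841).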

How the results depend on the processing

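Ciita was lower in all 16 alternative fits, with log2 fold changes from -1.02 to -0.86 and adjusted p-values from 1.79e-07 (DESeq2) to 0.0951 (edgeR), and passed both thresholds in 12 of them. With each tumor left out in turn its log2 fold change lay between -1.02 and -0.86, and it did not pass without the third saline or the fourth mAb-DXd/IMQ tumor. The count of called class II genes, 1 of 10, lay between 0 and 1 with a tumor left out.

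The 197 called genes became 358 without the filter, 787 with DESeq2 and 122 with the gene length correction, and between 10 and 203 with a tumor left out. The pathway lists' 1 called gene became 2 with DESeq2's size factors and 2 with the gene length correction, 4 without the filter and 6 with DESeq2, and lay between 0 and 2 with a tumor left out.

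With a replicate block, 14 genes were called, with or without the gene length correction, and 0 class II and 0 pathway genes. Ciita was at -0.93 (adjusted p = 0.0815, edgeR) with the block and at -0.86 (adjusted p = 0.0951, edgeR) with the correction added. The deviations of same-numbered tumors, compared across genes, which are not independent replicates, gave correlations between -0.17 and 0.079. Differently numbered tumors gave correlations between -0.10 and 0.18. The check thus gave no sign that the numbers pair tumors, but with 4 tumors per group it cannot exclude it.

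The direction turned for H2-DMb1 (0.053 without the third mAb-DXd/IMQ tumor, between -0.45 and 0.053 with a tumor left out) and for H2-Eb2 (0.23 with limma-voom, 0.25 with the replicate block, 0.14 with block and length correction, and between -0.88 and 0.56 with a tumor left out). The cause was not tested. Over the 46 genes named in the methods and 736 values, 691 kept direction and side of the thresholds, 24 lost the call, 16 gained it and 5 changed direction. Low counts limit H2-Oa, H2-Ob and H2-Eb2. The leave-one-out values of ratios and levels were added after the data were seen.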
